A study of Mus musculus with 6 samples.

Results

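The zinc transporter genes described here are 10 members of the SLC30 and SLC39 solute carrier families, measured in mouse mammary gland. They were found by symbol: a probe set belonged to them where the platform annotation gave it a single gene symbol and that symbol was Slc30a1, Slc30a2, Slc30a4, Slc30a5, Slc30a7, Slc39a4, Slc39a6, Slc39a7, Slc39a8 or Slc39a14. This gave 19 of 45101 probe sets, 7 for the 5 Slc30a genes and 12 for the 5 Slc39a genes. The glands came from female bitransgenic mice, bred by crossing the mouse that the labels call LH with an MMTV-neu animal, whose neu (Erbb2) oncogene is under the promoter of the mouse mammary tumour virus. One group was 5 weeks old and the other 10 weeks old, and both carried both transgenes, so every comparison is between ages and none is with a wild-type or singly transgenic gland. Each age had 3 arrays, each array held RNA pooled from 3 animals, and the 9 animals of an age were therefore seen only as 3 pools.

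Zinc cannot cross membranes unaided, and a pair of protein families carry it. SLC30 proteins, the ZnT transporters, move zinc out of the cytosol, either across the plasma membrane or into vesicles, the Golgi apparatus and other compartments, and are called exporters here. SLC39 proteins, the ZIP transporters, move zinc into the cytosol from outside the cell or out of compartments, and are called importers here. The mammary epithelium takes zinc from blood and secretes it into milk, which supplies the newborn.

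The level of a gene is the deposited linear signal intensity, in arbitrary units, and a gene with several probe sets was read on its brightest. A difference is the mean of log2(signal + 32) at 10 weeks minus that at 5 weeks, tested with limma over 27022 probe sets and called at a Benjamini-Hochberg adjusted p of 0.05. All 10 genes passed the filter, which left out probe sets whose mean over the 6 pools lay under a signal of about 102.5, as did 17 of their 19 probe sets. Of these 17, the probe set of Slc30a2 and 1 of the 4 of Slc39a14 lay under that level at 5 weeks. They passed only through their high 10-week signals, so they had to differ, and no support is drawn from their calls. At 10 weeks 9 of the 10 genes were called higher and none lower, 4 of 5 exporters and 5 of 5 importers. Of the 9 genes above the filter level at both ages, 8 were higher. Among all 13002 genes tested, 15.3% were called higher and 18.7% lower; by probe set, 15 of 17 zinc transporter probe sets were higher (13 of the 15 above the filter level at both ages), against 13.4% and 15.3% of all probe sets called higher and lower. The median difference of the 10 genes was 0.99, against 0.00 over all genes tested. In all 10 the 3 pools at 10 weeks lay above the 3 at 5 weeks, an arrangement that 24.0% of all genes tested showed. The genes were chosen with earlier results of these data known, so these counts describe them and are not independent evidence of their direction.

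**Figure D1:**
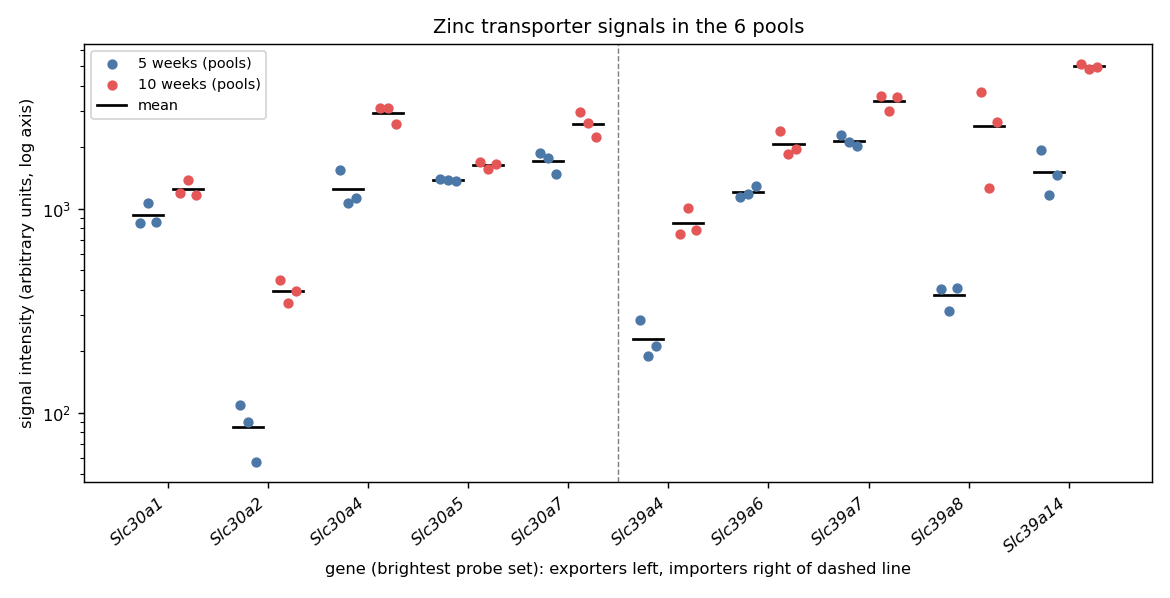
Signal intensity (arbitrary units, log axis) of the brightest probe set of each zinc transporter gene, with a point for each pool (blue for 5 weeks, red for 10 weeks) and a bar at the mean of 3 pools. In every gene the red points lie above the blue ones; the gap is widest for Slc39a8 and Slc30a2 and narrowest for Slc30a5 and Slc30a1, and signals of different genes are not comparable in level.

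Among the exporters, the largest difference was that of Slc30a2, which encodes ZnT2, the transporter that loads zinc into secretory vesicles of the mammary epithelium; women with a defective copy of the human gene produce zinc-poor milk. Its signals were 108.7, 89.6 and 57.0 at 5 weeks and 446.1, 345.2 and 394.3 at 10 weeks. Every 10-week pool was at least 3.18 times as high as the highest 5-week pool. The mean rose 4.64-fold, from 85.1 ± 26.1 (SD, n = 3) to 395.2 ± 50.5 (SD, n = 3), which gave a log2 difference of 1.89. Slc30a2 lay under the filter level at 5 weeks, where its signal may be near background, and passed the filter only because its 10-week signals were high. It is therefore read on the fit with no filter, over all 45037 probe sets, which gave 1.89 ± 0.22 (SE, limma adjusted p = 0.00127). An offset of 32 lowers the difference of dim genes; with an offset of 1 it was 2.24 and with 100 it was 1.43.

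Slc30a4 encodes ZnT4, the transporter that is defective in lethal milk mice, whose pups die on zinc-deficient milk. Its signals were 1547.7, 1060.2 and 1128.3 at 5 weeks and 3098.2, 3124.9 and 2604.9 at 10 weeks. The ages did not overlap, and 5-week pool 1 was the highest of its age. The mean rose 2.36-fold, a log2 difference of 1.23 ± 0.15 (SE, limma adjusted p = 0.00058).

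Slc30a7 and Slc30a5 encode ZnT7 and ZnT5, which deliver zinc to the Golgi apparatus and early secretory pathway, where enzymes such as alkaline phosphatase receive it. The signals of Slc30a7 were 1866.1, 1759.2 and 1479.0 at 5 weeks and 2965.1, 2613.7 and 2231.6 at 10 weeks, a difference of 0.60 ± 0.13 (SE, limma adjusted p = 0.0104). Its dimmer probe set rose from 606.8 ± 29.5 (SD, n = 3) to 1075 ± 95.1 (SD, n = 3), with a difference of 0.79. Slc30a5 had signals of 1390.6, 1379.3 and 1367.6 at 5 weeks and 1682.4, 1558.2 and 1658.8 at 10 weeks. The 10-week signals of Slc30a5 were higher in each pool, by 18.4% on average, but the test was not passed by its difference of 0.24 ± 0.09 (SE) (limma adjusted p = 0.0911). Its 95% confidence interval ran from 0.02 to 0.45, an interval whose upper end is well below a doubling.

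Slc30a1 encodes ZnT1, which removes zinc across the plasma membrane and is a known target of the zinc-sensing transcription factor MTF1. Its signals were 852.8, 1063.2 and 861.0 at 5 weeks and 1195.9, 1372.5 and 1164.5 at 10 weeks. Pool 2 was the highest of each age, and the lowest 10-week pool exceeded the highest 5-week pool by a factor of 1.09. The difference was 0.42 ± 0.13 (SE, limma adjusted p = 0.0379), and this call was lost when any pool other than 5-week pool 2 was left out (adjusted p = 0.0602 to 0.126), and also with no filter (0.0525) or no variance trend (0.0586). The dimmer probe set of Slc30a1 rose from 204.4 ± 6.52 (SD, n = 3) to 344.0 ± 62.6 (SD, n = 3), a difference of 0.66 ± 0.16 (SE, limma adjusted p = 0.0159).

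The largest difference of all 10 genes was that of the importer gene Slc39a8. It encodes ZIP8, a plasma membrane transporter of zinc and manganese that is known to be raised by inflammatory signals. Its signals were 405.2, 315.6 and 409.4 at 5 weeks and 3729.8, 1264.7 and 2642.0 at 10 weeks. The 10-week pools spread widely, with pool 2 the lowest, yet even that pool was 3.09 times as high as the highest 5-week pool. The mean rose 6.76-fold, from 376.7 ± 53.0 (SD, n = 3) to 2546 ± 1235 (SD, n = 3), which gave a log2 difference of 2.53 ± 0.33 (SE, limma adjusted p = 0.000736). The other Slc39a8 probe set repeated the order of the 10-week pools, with 1015.6, 480.5 and 896.1, and rose by 2.13.

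Slc39a14 encodes ZIP14, the closest relative of ZIP8, which carries zinc, iron and manganese and is known as a target of interleukin-6 in the acute phase response. Its signals were 1933.4, 1158.5 and 1457.6 at 5 weeks and 5110.3, 4845.6 and 4941.8 at 10 weeks. In this brightest probe set the 10-week pools were nearly alike and the 5-week pools were not. The other probe sets of Slc39a14 did not share that pattern, and 1 of them had 514.6, 803.0 and 944.3 at 10 weeks. The difference was 1.72 ± 0.16 (SE, limma adjusted p = 0.000183). All probe sets of Slc39a14 above the filter level at both ages were called, with differences of 1.38 to 1.99. The dim probe set named above gave 1.45, and no support is drawn from its call.

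Slc39a4 encodes ZIP4, the importer of the intestine whose loss in people causes the zinc deficiency acrodermatitis enteropathica. It had signals of 283.6, 188.4 and 212.9 at 5 weeks and 751.9, 1004.5 and 786.4 at 10 weeks. Each 10-week pool was at least 2.65 times as high as the highest 5-week pool. The mean rose 3.71-fold, a log2 difference of 1.76 ± 0.18 (SE, limma adjusted p = 0.000235).

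Slc39a6 encodes ZIP6, also named LIV-1, a plasma membrane importer known as an oestrogen-responsive gene of breast cancer cells. Its signals were 1134.9, 1178.5 and 1289.6 at 5 weeks and 2384.6, 1841.3 and 1953.0 at 10 weeks, a difference of 0.76 ± 0.12 (SE, limma adjusted p = 0.00227). The probe sets of Slc39a6 disagreed on the size. The next brightest had 474.1, 404.0 and 439.5 at 5 weeks and 438.4, 537.6 and 750.7 at 10 weeks, so the ages overlapped, and the test was not passed by its difference of 0.34 ± 0.19 (SE) (limma adjusted p = 0.216). A further 2 probe sets, with signals of 13.7 to 65.2, were left out by the filter.

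Slc39a7 encodes ZIP7, which releases zinc from the endoplasmic reticulum into the cytosol. Its signals were 2295.6, 2106.3 and 2024.4 at 5 weeks and 3554.9, 2993.2 and 3534.6 at 10 weeks. The ages did not overlap, and the difference was 0.64 ± 0.11 (SE, limma adjusted p = 0.00248). Its only probe set carries the suffix by which the array maker marks probe sets that can detect more than 1 transcript, so its signal may include another transcript.

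**Figure D2:**
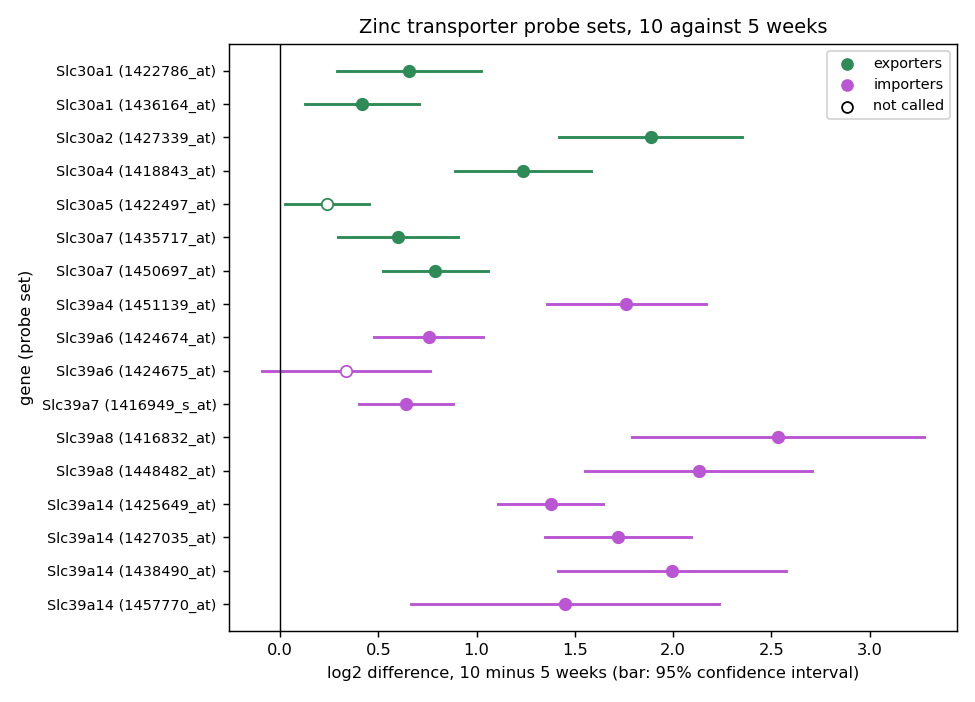
Difference between 10 and 5 weeks (log2 scale, horizontal axis) for the 17 zinc transporter probe sets that passed the filter, exporters in green and importers in purple, with bars for the 95% confidence interval from limma and open circles for probe sets that were not called. All points lie to the right of 0, and 15 of the 17 were called; the open circles are Slc30a5 and the less bright tested probe set of Slc39a6.

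The 10 genes did not move by a common amount. In order of their differences, Slc39a8 (2.53) was followed by Slc30a2 (1.89), Slc39a4 (1.76), Slc39a14 (1.72) and Slc30a4 (1.23), and then by Slc39a6 (0.76), Slc39a7 (0.64), Slc30a7 (0.60), Slc30a1 (0.42) and Slc30a5 (0.24). Neighbours in this order had overlapping 95% confidence intervals, so their order is not settled. The interval of Slc30a4, 0.89 to 1.58, lay above that of Slc39a7, 0.40 to 0.88, and above that of the Golgi exporter Slc30a5. It overlapped that of the other Golgi exporter, Slc30a7, 0.30 to 0.91. The interval of Slc30a2 is not set against these, since that gene passed the filter only through its 10-week signals. Of the 5 exporters, 2 differed by more than 1 on the log2 scale, and of the 5 importers 3 did.

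To set exporters beside importers, the log2 signal of each gene was centred on its own mean over the 6 pools, because signals of different probe sets are not comparable in level. The mean over the 5 exporters was -0.31, -0.41 and -0.60 at 5 weeks and 0.52, 0.44 and 0.35 at 10 weeks. For the 5 importers it was -0.58, -0.91 and -0.73 at 5 weeks and 0.91, 0.55 and 0.76 at 10 weeks. These 5 exporters and 5 importers were thus both higher in every 10-week pool, by 0.88 on average for exporters and 1.48 for importers. Other members of the families, given below, did not all rise. Their medians were 0.60 and 1.72. The importer mean minus the exporter mean was -0.28, -0.50 and -0.14 at 5 weeks and 0.39, 0.11 and 0.41 at 10 weeks, a shift of 0.61 without overlap between the ages. No p-value is given for a mean over chosen genes. The differences of exporters and importers overlapped: that of the exporter Slc30a4 (1.23) was larger than those of the importers Slc39a6 (0.76) and Slc39a7 (0.64). The shift was 0.86 under a filter that leaves out the dimmest 60% of probe sets, Slc30a2 among them, and 0.46 after averaging each gene's probe sets. The shift without Slc39a8, the importer with the largest difference, was not computed. It would be smaller, since the difference of Slc39a8 (2.53) lies above the importer mean of 1.48. The other importers had differences of 1.76, 1.72, 0.76 and 0.64.

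**Figure D3:**
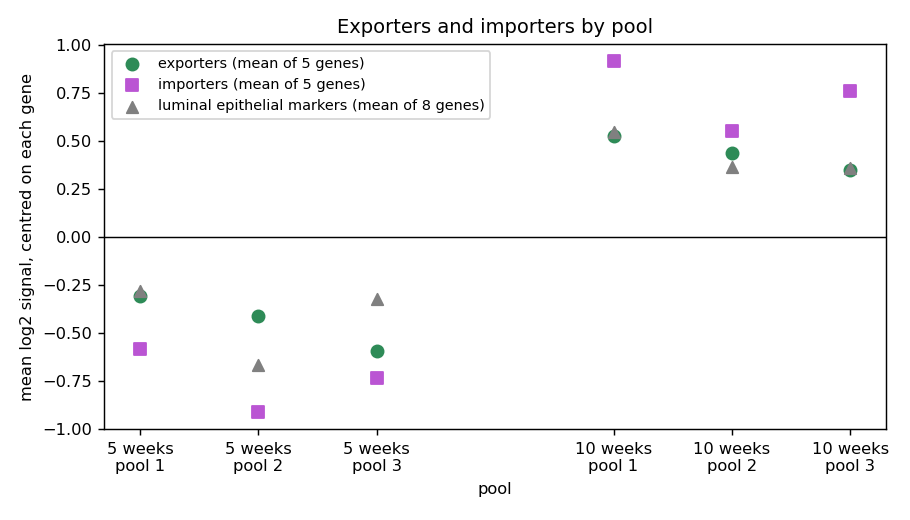
Mean centred log2 signal (vertical axis) in each of the 6 pools (horizontal axis) for the 5 exporters (green circles), the 5 importers (purple squares) and the 8 luminal epithelial markers (grey triangles). All 3 means are below 0 at 5 weeks and above 0 at 10 weeks; the importers lie farthest from 0 in every pool.

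Markers of the cell types of the gland also differed between the ages. In RNA of a whole gland, more cells of a type cannot be told apart from more RNA of a gene per cell. Of 8 luminal epithelial markers 6 were higher at 10 weeks and none lower, with a median difference of 0.77. Their mean log2 signal ran from 11.64 to 12.02 at 5 weeks and from 12.66 to 12.85 at 10 weeks. The brightest by mean log2 signal, Krt8, rose by 0.38. Of 6 fibroblast markers 5 were lower, with a median of -0.74, and of 4 endothelial markers 3 were lower. Beside these counts, 15.3% of all genes tested were called higher and 18.7% lower. Of 6 milk protein markers 2 were higher and none lower, with a median of 0.47. Markers of basal cells (2 of 5 higher, 1 lower) and macrophages (2 of 4 higher, 1 lower) were mixed. Of 4 adipocyte markers 2 were lower and none higher, with a median of -0.60, against -0.62 for the endothelial markers. The brightest markers of these lists were Col3a1 (-0.20), Cdh5 (-0.12), Csn3 (0.18), Acta2 (0.34), Lyz2 (0.32) and Fabp4 (-0.04), of which Acta2 and Lyz2 passed the test. Dimmer probe sets of Csn3 (2.19, called higher) and Col3a1 (-1.08, called lower) differed far more than the brightest. The dimmer tested probe sets of Cdh5, Acta2 and Fabp4 were not called. The brightest marker therefore does not stand for its list. The mean of 6 skeletal muscle markers, led by Acta1 (-0.98, not called), was 9.24 in 10-week pool 1. It was 12.42 and 12.32 in 10-week pools 2 and 3, and 12.74 to 13.58 at 5 weeks. In all 6 markers every 10-week pool lay below every 5-week pool, as in 3417 of all 13002 genes tested. Their median difference was -2.025, and 1 of the 6 was called lower. The mean of 4 B and T cell markers, led by Cd3g (0.69, not called), was 9.34 in 5-week pool 2 and 6.89 to 8.07 elsewhere, with none called. No marker tested was at 0, and the lowest signal was 6.9, that of the B cell gene Cd79b in 10-week pool 1. Without 10-week pool 1 and 5-week pool 2 together the calls of all 9 zinc transporter genes held, that of Slc30a7 narrowly (limma adjusted p = 0.04975). The call of Slc30a1 was lost without 10-week pool 1 alone (limma adjusted p = 0.0714), and no support is drawn from Slc30a2. The part of the luminal shift in the differences of the zinc transporters was not tested.

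Within each array the zinc transporters could be set against the mean of the luminal markers, both centred as above. Slc39a8, Slc39a4, Slc39a14 and Slc30a4 exceeded that mean more at 10 weeks than at 5 weeks, by 1.69, 0.92, 0.88 and 0.39, with no overlap between the ages. So did Slc30a2, by 1.04, but it passed the filter only through its 10-week signals, and no support is drawn from it. Slc30a5 lagged behind the luminal mean by 0.61, again without overlap. On this measure 2.54% of all genes tested lay above without overlap and 82.2% below, and the luminal mean itself shifted by 0.85. The 8 luminal markers differed among themselves, from 0.32 to 1.70 (Spint1). The difference of Slc30a4 (1.23) lies inside that range, and those of Slc39a14 (1.72) and Slc39a4 (1.76) only just pass it. For Slc30a1, Slc30a7, Slc39a6 and Slc39a7 the values of the ages overlapped, with differences of -0.43, -0.24, -0.09 and -0.21. The values are given as a description with no test.

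Other members of both families, and genes of zinc buffering, were followed in the same way. Of 5 other Slc30a genes 3 were tested, and 1 was higher and 1 lower. Slc30a6, whose ZnT6 protein pairs with ZnT5 in the Golgi apparatus, had signals of 829.0, 797.3 and 939.5 at 5 weeks and 1085.1, 1199.6 and 1048.4 at 10 weeks. Its difference of 0.37 ± 0.12 (SE) passed the test narrowly (limma adjusted p = 0.043), and the call was lost without 5-week pool 1 (0.108), without 5-week pool 2 (0.118), without any 1 of the 10-week pools (0.0671 to 0.136), without 10-week pool 1 and 5-week pool 2 together (0.173), with no filter (0.0525), with no variance trend (0.0626) and with arrays scaled to a common median (0.0575). Slc30a9 fell, with signals of 977.0, 1134.3 and 1095.8 at 5 weeks and 700.0, 769.6 and 776.6 at 10 weeks, a difference of -0.49 ± 0.11 (SE, limma adjusted p = 0.0117). Without 10-week pool 1 and 5-week pool 2 together, that call was lost (adjusted p = 0.0978).

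Of 9 other Slc39a genes 6 were tested, and 1 was higher, 1 lower and 4 not called. These few calls in both lists stand beside 15.3% of all genes called higher and 18.7% lower, and no difference from all genes is read from them. Slc39a11 rose from 848.4, 769.9 and 928.6 at 5 weeks to 1609.6, 1597.5 and 1369.9 at 10 weeks, a difference of 0.82 ± 0.12 (SE, limma adjusted p = 0.0013). Slc39a10, which encodes ZIP10, the closest relative of ZIP6, went the other way from Slc39a6. Its signals were 1210.5, 1171.8 and 1296.7 at 5 weeks and 853.3, 904.5 and 787.7 at 10 weeks, a difference of -0.52 ± 0.11 (SE, limma adjusted p = 0.00792); its other probe set gave -0.37 and was not called (limma adjusted p = 0.0657). The median difference was 0.31 over the 3 other Slc30a genes and 0.14 over the 6 other Slc39a genes.

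Of 5 genes in the list for zinc buffering, which holds the metallothioneins and their regulator Mtf1, 3 were tested and 2 were higher. These were the metallothionein genes Mt1 and Mt2, whose small proteins bind zinc and which MTF1 is known to induce when cytosolic zinc rises. Mt1 had signals of 4713.8, 5311.4 and 4583.7 at 5 weeks and 10925.6, 7219.2 and 9085.3 at 10 weeks, a difference of 0.88 ± 0.15 (SE, limma adjusted p = 0.00246). Mt2 had signals of 3488.1, 5050.5 and 3683.4 at 5 weeks and 8272.8, 6296.5 and 7217.5 at 10 weeks, a difference of 0.84 ± 0.16 (SE, limma adjusted p = 0.00423). The brighter Mt1 probe set, like that of Slc39a7, is marked as able to detect more than 1 transcript. In both genes 10-week pool 2 was the lowest of its age and 5-week pool 2 the highest, and the ages did not overlap. Metallothioneins also respond to glucocorticoids, cadmium and inflammation, so their signal is not a measure of zinc alone. Mt3, a metallothionein known mainly from brain, went the other way, with signals of 134.7, 189.7 and 105.6 at 5 weeks and 16.3, 34.6 and 49.0 at 10 weeks. Its ages did not overlap, but its mean lay under the filter level. With no filter its difference was -1.43 ± 0.27 (SE, limma adjusted p = 0.0108). Mtf1 itself had a difference of 0.33 ± 0.21 (SE) and was not called (limma adjusted p = 0.26).

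**Figure D4:**
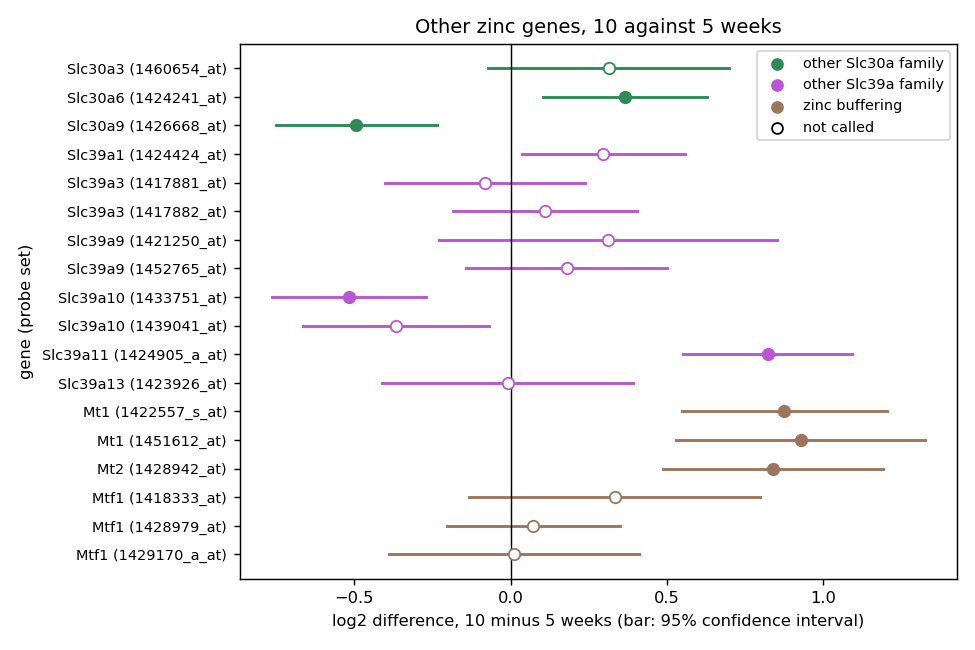
Difference between 10 and 5 weeks (log2 scale, horizontal axis) for the tested probe sets of the other Slc30a genes (green), the other Slc39a genes (purple) and the zinc buffering genes (brown), with bars for the 95% confidence interval from limma and open circles for probe sets that were not called. Slc39a11, Mt1 and Mt2 lie farthest to the right, and Slc30a9 and Slc39a10 are the called genes to the left of 0.

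MTF1 acts through a short sequence called the metal response element, and the bases upstream of the zinc genes were searched for its core, spelled TGCACNC or TGCGCNC, on both strands and with overlapping matches counted separately. RefSeq sequences of GRCm38.p6, 250 bases before an annotated start, matched 7 of the 10 zinc transporter genes, and in 5 of the 7 a window held the core. Among all 32851 such windows, 21.4% held it and 5.17% held it at least 2 times. Shown here are the windows of Slc30a4, the exporter of the lethal milk mouse, and of Mt2, because both genes were higher at 10 weeks and both windows lie outside the gene itself. The window of Slc39a7 also lies outside its gene but overlaps the neighbouring gene Rxrb and holds no match, and the windows of the other 5 genes reach into the annotated span of the same gene, so these are not shown. Windows outside the gene also held the core in Slc30a10 (3 matches), Slc30a3 (1) and Mt4 (1). Slc30a3 was not called, and Slc30a10 and Mt4 were left out by the filter. No link between the core and the difference between ages is read from the windows shown. The core is in capitals, in either orientation; Slc30a4 has it 221 and 85 bases before the start (chr2:122702664-122702913, minus strand) and Mt2 has it 216, 121 and 43 bases before the start (chr8:94172368-94172617, plus strand).
Slc30a4: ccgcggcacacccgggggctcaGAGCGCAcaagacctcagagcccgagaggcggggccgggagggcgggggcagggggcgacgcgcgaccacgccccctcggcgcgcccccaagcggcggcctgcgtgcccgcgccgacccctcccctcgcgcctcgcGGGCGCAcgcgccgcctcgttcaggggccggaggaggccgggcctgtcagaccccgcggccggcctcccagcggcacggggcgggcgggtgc
Mt2: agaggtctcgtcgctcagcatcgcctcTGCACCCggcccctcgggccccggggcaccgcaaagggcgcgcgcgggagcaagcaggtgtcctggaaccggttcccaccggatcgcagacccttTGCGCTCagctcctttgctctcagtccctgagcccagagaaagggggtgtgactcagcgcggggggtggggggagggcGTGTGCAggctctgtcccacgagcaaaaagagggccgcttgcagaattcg
A match of these letters is a description and does not show that MTF1 binds there.

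By the smallest root mean square difference of centred log2 signals over the 6 pools, the genes whose pattern was most like that of Slc39a8, among 13001 others, were Pkd2l1 (0.29), Rnase1 (0.32), Nucb2 (0.32), Nfe2l3 (0.35) and 1300017J02Rik (0.35). Each was called higher at 10 weeks, with differences of 2.38, 3.07, 2.45, 2.30 and 2.11. They were picked for likeness to a called increase, so no support is drawn from these calls. Pkd2l1, with signals of 51.0, 45.4 and 21.4 at 5 weeks, also lay under the filter level there and passed only through its 10-week signals. In all 5, 10-week pool 2 was the lowest of its age, as it was for Slc39a8. In Rnase1, which encodes a secreted ribonuclease, the 10-week signals were 3666.3, 1244.6 and 2898.6. The likeness was chosen from these same 6 arrays and most of it is the contrast between the ages.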

How the data were processed

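The data are 1 table of 45101 probe sets for 6 arrays hybridised with biotin-labelled total RNA. The deposited values are linear signal intensities, scaled by the authors to a trimmed mean of 500.0 (2% off each end), as computed from each array; the sources used here name no algorithm, detection call or batch. Median signals were 156.4 to 172.5. The number of arrays limits the precision. Labels do not say how animals were assigned to pools. Gene symbols were brought up to date by gene identifier with RefSeq (GRCm38.p6).

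Signals were floored at 1 and transformed as log2(value + 32), with no further normalization, since array medians lay within 0.118 on the log2 scale. The dimmest 40% of probe sets by mean were not tested. limma 3.58.1 in R 4.3.3 (lmFit, eBayes with trend, 4 residual degrees of freedom, two-sided) compared the ages, and was tested on simulated data. The genes named by rule are all 10 zinc transporters, every called gene of the related zinc lists, the brightest marker of each cell type list, and the 5 genes most like the largest increase (no zinc transporter was lower). Mt3, Mt4, Mtf1, Slc30a3, Slc30a10, Spint1, Cd79b and Rxrb are named outside this rule. Of the related zinc genes left out by the filter, only the signals of Mt3 are described. These genes, lists and alternatives were chosen with earlier results of these data known. Alternatives changed the offset, filter, normalization, variance model, array weights and probe set rule, and left out each pool. Plots used matplotlib 3.10.9.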

Additional observations from a re-analysis of the deposited data

How the results depend on the processing

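Of 169 recomputed differences of the 10 zinc transporter genes under 17 alternatives, 162 kept their direction and side of the threshold and 7, all of Slc30a1, lost the call; none reversed. With the 60% lowest probe sets left out, Slc30a2 was not tested. Exporters called higher numbered 3 to 4 and importers 5 under every alternative. Leaving out each pool in turn gave 5661 to 6448 called probe sets, against 7774 with all pools, and a shift of importers against exporters of 0.51 to 0.70. Without 10-week pool 1 and 5-week pool 2 together, chosen after seeing the data, 5002 probe sets were called. The shift of importers against exporters was 0.86 with the 60% lowest probe sets left out, since Slc30a2 drops out of the mean. No paired analysis was possible because the labels give the pools no shared replicate numbers. Signals are linear intensities with no background estimate, so how far the dimmest 5-week signals stand above background is unknown.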
